A study of Homo sapiens with 8 samples.

Results

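The genes examined here are the human zinc finger genes whose symbol is ZNF followed by a number, and their members were chosen by that name alone, as the nearest gene to a ChIP-seq peak. Of 23433 peaks in 6 lists, 388 peaks lay nearest to a ZNF gene, and these belonged to 218 gene names. The other 18897 peaks nearest to a protein-coding gene served for comparison. Of the 388 peaks, 372 were assigned to a gene of the type protein-coding and 16 to pseudogenes or other types, such as ZNF724P and ZNF503-AS2.

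Protein-DNA interactions were measured by ChIP-seq with anti-FLAG beads in DLD-1 cells, a human colon cancer line with high endogenous Wnt signaling. Each cell line was a clone that carries a doxycycline-inducible, FLAG-tagged dominant negative TCF1E, either wild type (dnTCF1EWT) or with a substitution in the C-clamp that abolishes its DNA binding (dnTCF1Emut). Cells were untreated (0 h) or treated with doxycycline for 2 or 9 h. Each condition is 1 pooled list of peaks, so no spread between replicates can be given and no test was made.

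C2H2 zinc finger proteins form the largest family of DNA-binding proteins in the human genome. Many of them pair an array of zinc fingers with a KRAB domain, which recruits the corepressor TRIM28 and, with it, heterochromatin proteins. KRAB zinc finger genes arose by repeated duplication, lie in long clusters that are most extensive on chromosome 19, and are best known for silencing retroelements. TCF1E reads DNA with 2 domains, the HMG box, which binds the Wnt response element (WRE, CTTTG followed by A or T, A or T, and C or G), and the C-clamp, which binds Helper sites (ACCGCC or GCCGCC) and short Helper sites (ACCG or GCCG).

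In dnTCF1EWT cells 1907 peaks were listed before induction, 5585 after 2 h and 12996 after 9 h. The corresponding lists of dnTCF1Emut cells were shorter, at 708, 1883 and 354. The peak score of MACS, which grows with the significance of a peak and is not scaled between libraries, had a lowest value between 50.01 and 50.21 in the 6 lists. Read numbers are not given with the peaks. The depth behind each list is therefore unknown, and scores of different lists are given side by side. The labels describe 1 input sample for each line, so the lists of a line may share a control, and they describe the dnTCF1Emut input as more deeply sequenced. The dnTCF1Emut 0 h list stood apart, because 83.8% of its other protein-coding peaks had a GC content below 15% (469 of 560), against 0.0448% in the dnTCF1EWT 2 h list (2 of 4462). Of the ZNF peaks, 5 of 8 in the dnTCF1Emut 0 h list, 5 of 15 at 2 h and 1 of 5 at 9 h were AT-rich in this way, and none of the 360 ZNF peaks of the 3 dnTCF1EWT lists was. The later dnTCF1Emut lists also held AT-rich peaks of other genes. Of their other protein-coding peaks, 1163 of 1475 at 2 h and 171 of 264 at 9 h were not AT-rich. Each protein was expressed in its own line, so the protein, the clone and the library cannot be told apart in any comparison of dnTCF1EWT with dnTCF1Emut. The 95% intervals given below (Wilson) cover counting error only, and peaks near the same gene are not independent. For a count of 0, the share that it allows is given as 3 counts over the total, which is not the Wilson limit.

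In dnTCF1EWT cells 30 ZNF genes were nearest to 35 peaks at 0 h, 69 genes to 89 peaks at 2 h and 171 genes to 236 peaks at 9 h. In dnTCF1Emut cells the counts were 8 genes with 8 peaks, 12 genes with 15 peaks and 5 genes with 5 peaks. As a share of all peaks nearest to ZNF or other protein-coding genes, this was 2.29% (1.65 to 3.17) at 0 h, 1.96% (1.59 to 2.40) at 2 h and 2.17% (1.91 to 2.46) at 9 h of dnTCF1EWT. For dnTCF1Emut the shares were 1.41% (0.715 to 2.75), 1.01% (0.611 to 1.65) and 1.86% (0.796 to 4.28). For reference, 517 of 20056 protein-coding genes in RefSeq (2.58%) carry a ZNF symbol.

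Counted by gene, 62 of the 517 RefSeq ZNF genes had a dnTCF1EWT peak at 2 h, which is 12% (9.47 to 15.1), whereas 17.4% (16.9 to 17.9) of the other protein-coding genes did. At 9 h the 2 shares were 31.1% (27.3 to 35.3) and 33.5% (32.8 to 34.1), and the intervals overlapped. For dnTCF1Emut at 2 h, 2.13% (1.19 to 3.77) of ZNF genes and 5.94% (5.62 to 6.28) of the others had a peak. In all, 201 of the 517 RefSeq ZNF genes (38.9%) were nearest to a peak of at least 1 list. ZNF genes were thus no more often nearest to a peak than other genes in any list, and less often at 2 h by an amount larger than counting error.

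**Figure D1:**
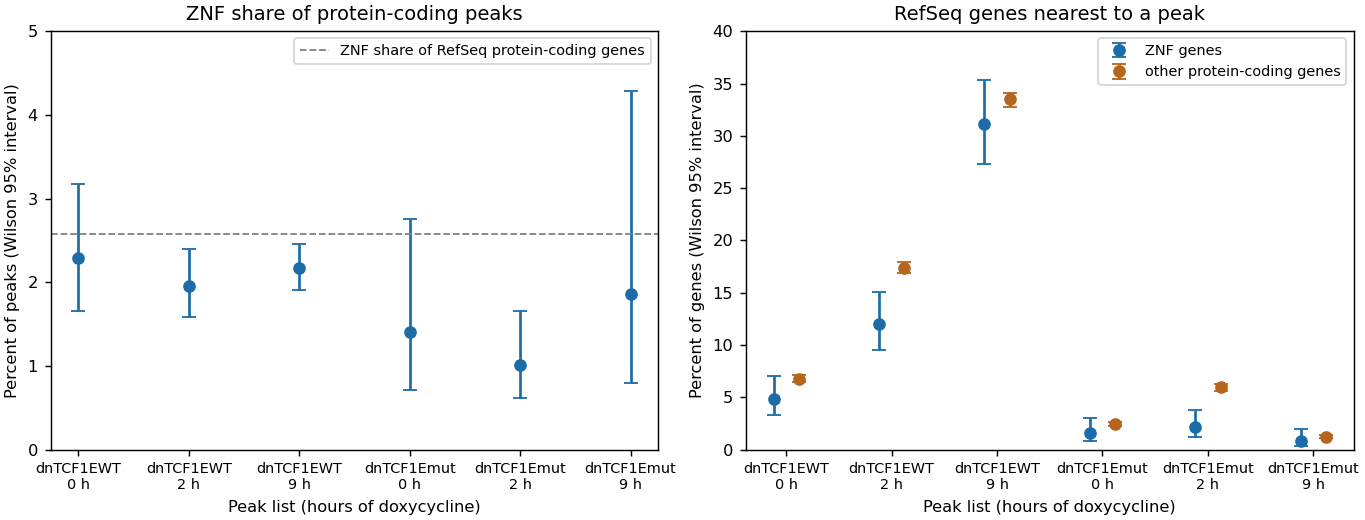
The left panel plots the percent of protein-coding peaks nearest to a ZNF gene in each list, with the ZNF share of RefSeq genes as a dashed line at 2.58%, and the right panel plots the percent of RefSeq ZNF and other protein-coding genes nearest to a peak. Points are percentages and bars are Wilson 95% intervals, and at 2 h the ZNF genes lie below the others for both proteins (12% against 17.4%, and 2.13% against 5.94%).

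Few peaks of any gene lay at a promoter by HOMER's class promoter-TSS. For dnTCF1EWT the share was 4.49% (1.76 to 11.0) of ZNF and 2.17% (1.79 to 2.64) of other protein-coding peaks at 2 h, and 1.27% (0.433 to 3.67) and 1.68% (1.45 to 1.94) at 9 h. HOMER placed 9 ZNF peaks of 7 genes in this class, namely ZNF551, ZNF564, ZNF775, ZNF738 and ZNF703 with 1 each and ZNF143 and ZNF430 with 2 each. A RefSeq promoter sequence was at hand for 5 of the 7, without ZNF703 and ZNF738. The promoters of 3 of them are shown, from 250 bases before to 50 bases after the start (GRCh38.p14, written along the gene), because they carried the ZNF promoter peak with the most Helper sites (ZNF143), the only promoter of the 5 with both a WRE and a Helper site (ZNF775) and the AT-rich promoter peak (ZNF430). Capitals mark a WRE or a Helper site on either strand.

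ZNF143 (chr11:9460762-9461061, plus strand): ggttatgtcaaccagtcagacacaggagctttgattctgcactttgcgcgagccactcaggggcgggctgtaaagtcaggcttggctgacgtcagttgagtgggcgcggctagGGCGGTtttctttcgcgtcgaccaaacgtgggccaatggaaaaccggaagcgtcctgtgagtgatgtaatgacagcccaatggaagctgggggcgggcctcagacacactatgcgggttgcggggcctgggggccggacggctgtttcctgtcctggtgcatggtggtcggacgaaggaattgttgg
ZNF775 (chr7:150379080-150379379, plus strand): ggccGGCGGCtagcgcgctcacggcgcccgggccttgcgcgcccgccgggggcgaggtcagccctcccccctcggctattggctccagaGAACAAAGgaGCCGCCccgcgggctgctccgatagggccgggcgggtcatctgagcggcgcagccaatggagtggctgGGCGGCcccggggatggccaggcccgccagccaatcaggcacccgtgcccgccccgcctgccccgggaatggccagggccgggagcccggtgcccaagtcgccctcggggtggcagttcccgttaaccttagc
ZNF430 (chr19:21020407-21020706, plus strand): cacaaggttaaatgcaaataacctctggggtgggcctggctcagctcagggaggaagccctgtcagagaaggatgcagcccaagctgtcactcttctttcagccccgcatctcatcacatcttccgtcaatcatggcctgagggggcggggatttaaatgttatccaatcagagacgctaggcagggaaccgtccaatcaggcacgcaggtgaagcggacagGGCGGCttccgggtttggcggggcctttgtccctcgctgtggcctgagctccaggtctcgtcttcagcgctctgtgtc

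ZNF143 is a transcription factor that binds the promoters of many housekeeping and small nuclear RNA genes. Its window held 1 Helper site and 5 short Helper sites and no WRE. The peaks at this promoter were centered 302 bp (2 h) and 132 bp (9 h) downstream of the TSS, beyond the printed window, and held more such sites, 6 Helper and 15 short Helper sites at 2 h and 5 and 14 at 9 h. The dnTCF1EWT peak score was 75.23 at 2 h (chr11:9482619-9483010, hg19) and 130.99 at 9 h (chr11:9482428-9482861), and the region was in none of the other 4 lists. ZNF143 was thus listed only in induced dnTCF1EWT cells, with many Helper sites and no WRE at either time.

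The ZNF775 window held 3 Helper sites, 12 short Helper sites and 1 WRE. Its dnTCF1EWT peak at 2 h, centered 683 bp upstream of the TSS, had a score of 51.19, close to the lowest listed, and held 4 short Helper sites, no Helper site and no WRE. The ZNF430 window was 58.0% GC with 1 Helper site, whereas the dnTCF1Emut peaks upstream of it, centered at 883 bp and 928 bp from the TSS, had a GC content of 4.90% at 0 h and 1.26% at 2 h. Their scores were 110.76 and 100.43, so the ZNF430 peak was present before induction.

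Over all 437 ZNF promoters with a sequence, 56.3% (51.6 to 60.9) held a Helper site, 6.64% (4.66 to 9.37) a WRE and 97.0% (95 to 98.3) a short Helper site, which lies within every Helper site. In all 15843 protein-coding promoters the shares were 54.1%, 5.30% and 87.7%. Helper sites and WREs were therefore about as frequent in ZNF promoters as in promoters at large, and more ZNF promoters held at least 1 short Helper site. The mean number per promoter did not show this, with 6.77 short Helper sites per ZNF promoter and 6.90 over all promoters, and 1.05 and 1.29 Helper sites. A match is a description of the sequence only.

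With a promoter defined as the 4 kb centered on the TSS, 10 of 89 ZNF peaks of dnTCF1EWT at 2 h were at a promoter, which is 11.2% (6.22 to 19.5), against 5.65% (5.01 to 6.36) of other protein-coding peaks. At 9 h the shares were 5.93% (3.57 to 9.71) and 5.01% (4.61 to 5.44), and the intervals overlapped at both times. Of the 10 peaks at 2 h, 7 lay on chromosome 19, where 25% (12.7 to 43.4) of ZNF peaks and 10.3% (6.33 to 16.3) of other peaks were within 2 kb of a TSS. On the other chromosomes the ZNF share was 4.92% (1.69 to 13.5). The highest-scoring promoter peak at 2 h lay in intron 2 of ZNF114, a KRAB zinc finger gene, 1815 bp from the TSS (chr19:48776261-48776677, score 225.99), and it was listed at 9 h with a score of 73.01. It held 3 short Helper sites, no Helper site and no WRE at 2 h.

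The remaining promoter peaks at 2 h had scores below 76, led by ZNF143 (75.23), ZNF33B (72.35), ZNF30 (65.86) and ZNF551 (62.19). ZNF33B and ZNF30 peaks lay in Alu elements of intron 1. At 9 h the highest were ZNF143 (130.99), ZNF219 (74.80), ZNF114 (73.01), ZNF738 (72.12) and ZNF512B (65.47). The ZNF219 peak, 373 bp from its TSS and at the transcription end of TMEM253, was the only ZNF promoter peak with both a WRE and a Helper site. In the other lists, peaks within 2 kb were at ZNF525 (53.44, dnTCF1EWT 0 h), at ZNF430 and at ZNF726 (50.38, dnTCF1Emut 2 h).

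Chromosome 19 held 134 of the 388 ZNF peaks, of 95 genes. In dnTCF1EWT this was 28.6% (16.3 to 45.1) of ZNF peaks at 0 h, 31.5% (22.8 to 41.7) at 2 h and 36.4% (30.6 to 42.8) at 9 h. Other protein-coding peaks lay there in 3.35%, 3.27% and 3.73% of cases. ZNF genes themselves lie in clusters on this chromosome, and each peak took the name of its nearest gene. The gap therefore cannot be read as binding concentrated there. The share of all RefSeq ZNF genes on chromosome 19 was not counted. The untreated list thus placed about as large a share of its ZNF peaks there as the induced lists. Among peaks that scored 100 or more at 9 h, 0 of 8 ZNF peaks (0.00 to 32.4%) and 1.88% (0.957 to 3.67) of other peaks were on chromosome 19. At 2 h the shares among such peaks were 1 of 9, or 11.1% (1.99 to 43.5), and 2.55% (1.64 to 3.94). The intervals overlapped at both times. With a gap of 1 Mb to divide them, the 134 peaks formed 15 groups, of which 5 with at least 10 peaks held 99.

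The largest group spanned 4.48 Mb (chr19:19798834-24277836) with 33 peaks at 19 genes, on the short arm beside the centromere. Its 3 dnTCF1EWT lists gave 3, 1 and 22 peaks and its dnTCF1Emut lists 3, 3 and 1, and 7 peaks held a WRE. The next groups were chr19:36708100-38259691 (21 peaks at 14 genes), chr19:52455581-54074087 (18 peaks at 14 genes), chr19:57934977-58950253 (14 peaks at 12 genes) and chr19:11834374-12725801 (13 peaks at 12 genes). In these 4 groups the highest score was 99.37, at ZNF417 at 9 h, and the medians lay between 52.63 and 56.64. Peaks of the 5 groups were thus spread over many genes. Those above a score of 100, at ZNF101 (0 h), ZNF430 (0 and 2 h) and ZNF675 (2 h), were all in dnTCF1Emut lists. The ZNF101 and ZNF430 peaks were AT-rich. Over all peaks, 33.5% and 35.8% scored 100 or more at 0 and 2 h of dnTCF1Emut, against 16.6% and 4.35% at 2 and 9 h of dnTCF1EWT.

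All RefSeq ZNF genes were then divided by whether an adjacent protein-coding gene was also a ZNF gene, which held for 344 of the 517. This division was chosen after seeing the data and is a description only. At 2 h, 8.72% (6.18 to 12.2) of ZNF genes with a ZNF neighbor had a dnTCF1EWT peak, against 18.5% (13.4 to 24.9) of those without. At 9 h the shares were 26.7% (22.3 to 31.7) and 39.9% (32.9 to 47.3). A score of 100 or more was reached by 0 of 31 peaks at 2 h and 0 of 118 peaks at 9 h near genes with a ZNF neighbor, which allows shares of up to 9.68% and 2.54%. Near genes without one, 9 of 50 peaks (18.0%, 9.77 to 30.8) and 8 of 105 peaks (7.62%, 3.91 to 14.3) reached it. Over all peaks of these lists 16.6% and 4.35% did. Every ZNF peak of dnTCF1EWT that scored 100 or more at 2 or 9 h was at a gene without a ZNF neighbor.

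Several other measures moved with this division. A WRE was in 1 of 31 and 9 of 50 peaks at 2 h, and in 5 of 118 and 11 of 105 peaks at 9 h. Peaks in a SINE made up 77.4% and 52.0% at 2 h, and 79.7% and 71.4% at 9 h. The median distance to the TSS was 10035 bp and 54808 bp at 2 h, and 15024 bp and 32318 bp at 9 h. Their part in the difference in score was not tested.

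**Figure D2:**
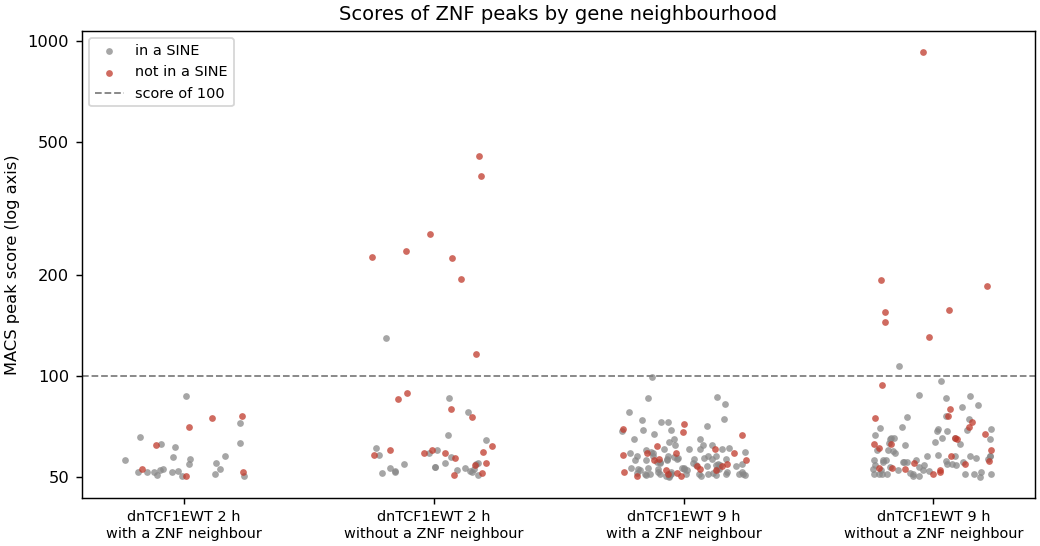
Each point is a dnTCF1EWT peak nearest to a RefSeq ZNF gene, placed by its MACS peak score on a log axis and by whether an adjacent protein-coding gene is also a ZNF gene, with peaks in a SINE in grey and others in red. No peak of a gene with a ZNF neighbor is above the dashed line at a score of 100, and 9 (2 h) and 8 (9 h) peaks of the other genes are.

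The median dnTCF1EWT score at 2 h was 57.4 for ZNF peaks (quartiles 52.5 and 66.0) and 58.8 for other protein-coding peaks (53.8 and 74.1). A score of 100 or more was found for 9 of 89 ZNF peaks, or 10.1% (5.41 to 18.1), compared with 16.6% of all 5585 peaks and 16.7% (15.7 to 17.8) of the other protein-coding peaks. At 9 h it was found for 8 of 236 ZNF peaks, 3.39% (1.73 to 6.55), compared with 4.35% of all peaks. At 0 h none of 35 ZNF peaks reached it, which allows up to 8.57%, and 1.73% of all peaks did. The share of high scores among ZNF peaks was thus within counting error of the background at 9 h and somewhat below the other genes at 2 h, where the intervals overlapped.

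Most ZNF peaks lay in repeats, as did those of other genes. A SINE held 51.4% of ZNF peaks at 0 h, 59.6% (49.2 to 69.1) at 2 h and 75% (69.1 to 80.1) at 9 h of dnTCF1EWT, against 56.6%, 50.9% and 77.8% of other peaks. SINE peaks of ZNF genes at 2 h had a median score of 54.6, and 1 of 53 reached 100. Outside SINEs the median was 61.9 and 8 of 36 ZNF peaks (22.2%, 11.7 to 38.1) reached it, against 32.4% (30.5 to 34.4) of other peaks outside SINEs. SINE peaks were rare in the dnTCF1Emut lists for all genes, with 0 of 15 ZNF peaks at 2 h, which allows up to 20.0%, and 2.71% of other peaks.

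WREs were in 11.2% (6.22 to 19.5) of ZNF peaks at 2 h and 7.20% (4.55 to 11.2) at 9 h of dnTCF1EWT, and in 15.8% and 6.03% of other protein-coding peaks. Helper sites were in 5.62% (2.42 to 12.5) and 3.81% (2.02 to 7.09), and in 6.66% and 4.51% of the others. Short Helper sites were in 60.7% and 55.1% of ZNF peaks, and in 54.3% and 55.3% of the others. None of these differences exceeded counting error. WREs and Helper sites were found in a larger share of the high-scoring peaks, which were also longer. Among the 9 ZNF peaks that scored 100 or more at 2 h, 6 had a WRE and 4 had a Helper site, whereas 4 and 1 of the other 80 did so. The same measure for other genes was 50.9% against 8.75% for the WRE and 17.7% against 4.44% for the Helper site. The median length, in the same order, was 459 against 176 bp for ZNF peaks and 438 against 173 bp for other peaks. Per kb, ZNF peaks held 3.31 against 0.380 WREs, 1.02 against 0.380 Helper sites and 4.84 against 5.70 short Helper sites. Other peaks held 1.67 against 0.523, 0.699 against 0.325 and 5.53 against 4.51.

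In the dnTCF1Emut 2 h list 8 of 15 ZNF peaks held a WRE (53.3%, 30.1 to 75.2), compared with 36.5% of other peaks. None held a Helper site, which allows up to 20.0%, and 4.47% of other peaks did. With the AT-rich peaks left out of both, 8 of 10 ZNF peaks and 46.3% (43.4 to 49.1) of other peaks held a WRE.

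**Figure D3:**
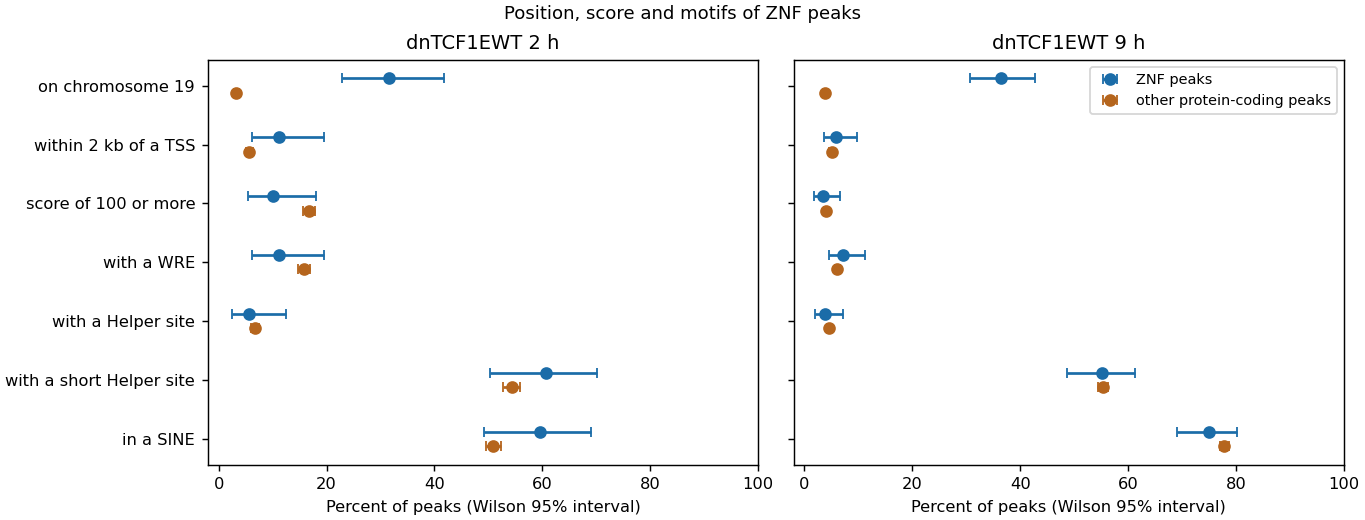
Percent of ZNF peaks (blue) and other protein-coding peaks (brown) with each property in the dnTCF1EWT lists at 2 h and 9 h, with Wilson 95% intervals as bars. The share on chromosome 19, where ZNF genes themselves lie in clusters, stands far apart (31.5% against 3.27% at 2 h), and the motif shares overlap.

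In the dnTCF1EWT lists at 2 and 9 h the peaks with the highest scores were at a small set of genes without a ZNF neighbor. The strongest at 2 h of dnTCF1EWT lay between genes on chromosome 5 (chr5:123498645-123499209, hg19), 581878 bp from the TSS of ZNF608, a little-studied relative of ZNF609. It had a score of 454.09 at 2 h and 193.94 at 9 h and was in no other list, and it held 1 Helper site and no WRE at 2 h. ZNF608 was nearest to 18 peaks in 5 lists, and 5 of them were in the dnTCF1EWT 0 h list, with scores from 52.33 to 70.91. Peaks nearest to ZNF608 were thus listed in untreated cells as well, although none of the 5 overlapped an induced peak. In the dnTCF1Emut 2 h list the highest ZNF608 peak, with a score of 117.72, lay in intron 1 of the gene, 3905 bp from the TSS.

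ZNF638 encodes a nucleic acid binding protein with roles in splicing and in the silencing of retroviral DNA. A peak in intron 10 of ZNF638 (chr2:71615176-71615788, hg19), inside an LTR22A element of an endogenous retrovirus, held 7 WREs and no Helper site. Its score was 394.91 at 2 h and 924.83 at 9 h of dnTCF1EWT. In dnTCF1Emut cells it was 67.32 at 0 h, 947.16 at 2 h and 289.56 at 9 h. The peak was not in the dnTCF1EWT 0 h list. It ranked 8 among the 12996 peaks of dnTCF1EWT at 9 h and 4 among those of dnTCF1Emut at both 2 h and 9 h. The score was thus highest at 9 h for dnTCF1EWT and at 2 h for dnTCF1Emut, and a weak peak was present in untreated dnTCF1Emut cells.

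ZNF703, a transcriptional cofactor gene amplified in luminal breast cancer, was nearest to 14 peaks on chromosome 8 in 4 lists. Of its 7 peaks at 2 h of dnTCF1EWT, those 142870 bp and 150101 bp upstream of the TSS had scores of 236.69 and 194.49 and 1 WRE each, and the second also held a Helper site. At 9 h there were 5 peaks, of which the peak at 142879 bp had a score of 155.72 and the promoter peak, 80 bp upstream, had 53.17. The dnTCF1Emut lists held only an AT-rich peak 378414 bp upstream, with scores of 63.52 at 0 h and 71.83 at 2 h.

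Other high scores at 2 h were those nearest to ZNF750, a regulator of epidermal differentiation, to ZNF366 and to ZNF217, an oncogene that acts with the LSD1 and CtBP corepressors. The ZNF750 peak (chr17:80847388-80847796) lay 49661 bp upstream, in an intron of TBCD, and scored 264.68 at 2 h and 186.13 at 9 h with 1 Helper site and no WRE. The ZNF366 peak (chr5:71898853-71899368) scored 224.71 at 2 h only and held 1 WRE and 1 Helper site. The ZNF217 peak (chr20:52324873-52325191), 125396 bp upstream, scored 129.45 at 2 h with 1 WRE, and 67.06 in the dnTCF1Emut 2 h list. The ZNF704 peak, 85717 bp upstream on chromosome 8, scored 116.61 at 2 h and 157.84 at 9 h and held 2 WREs. Of the 5 ZNF peaks with a Helper site at 2 h, those of ZNF608, ZNF750 and ZNF143 lacked a WRE and those of ZNF366 and ZNF703 held one.

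At 9 h the 5 highest scores were those of ZNF638, ZNF608, ZNF750, ZNF704 and ZNF703 given above. The genes with the most peaks in that list were ZNF608 with 7 and ZNF703 with 5, followed by ZNF184 and ZNF217 with 4 each. In untreated dnTCF1EWT cells the 5 highest scores were 83.28 and 77.40 near ZNF645, 78.52 in ZNF787, 75.58 near ZNF469 and 74.65 near ZNF847P, and none of these peaks held a WRE.

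In the dnTCF1Emut 0 h list the 5 highest ZNF peaks were at ZNF101 (190.54), ZNF430 (110.76), ZNF169 (85.00), ZNF573 (69.30) and ZNF638 (67.32), of which the first 3 had a GC content of 3.56% to 4.90%. At 2 h of dnTCF1Emut they were at ZNF638 (947.16), ZNF675 (331.48), ZNF673 and ZNF608 (117.72 each) and ZNF430 (100.43). At 9 h all 5 peaks of the list were at ZNF638 (289.56), ZNF673 (61.68), ZNF675 (57.73), ZNF716 (55.40) and ZNF717 (53.64). The ZNF673 peak, 63490 bp upstream on the X chromosome, was a TA repeat of 3.70% GC.

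The ZNF675 peak (chr19:23832586-23833221) lay in a MER11A retroviral repeat with 5 WREs, and scored 331.48 at 2 h and 57.73 at 9 h of dnTCF1Emut and 61.73 at 9 h of dnTCF1EWT. A MER11A peak near ZNF804A (chr2:185271949-185272428) held 2 WREs and scored 59.31 and 94.15 at 2 h and 9 h of dnTCF1EWT and 50.60 at 2 h of dnTCF1Emut. MER11A elements were in 37 and 75 peaks of the dnTCF1EWT lists at 2 h and 9 h, of which 26 and 62 held a WRE, in 54 and 7 peaks of the dnTCF1Emut lists, and in none at 0 h of either line. Of the MER11A peaks, 1 of 37 and 2 of 75 in these dnTCF1EWT lists were nearest to a ZNF gene. In the dnTCF1Emut lists at 2 h and 9 h, 2 of 54 and 1 of 7 were. Over all peaks of the same lists, in this order, the ZNF share was 1.59%, 1.82%, 0.797% and 1.41%.

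**Figure D4:**
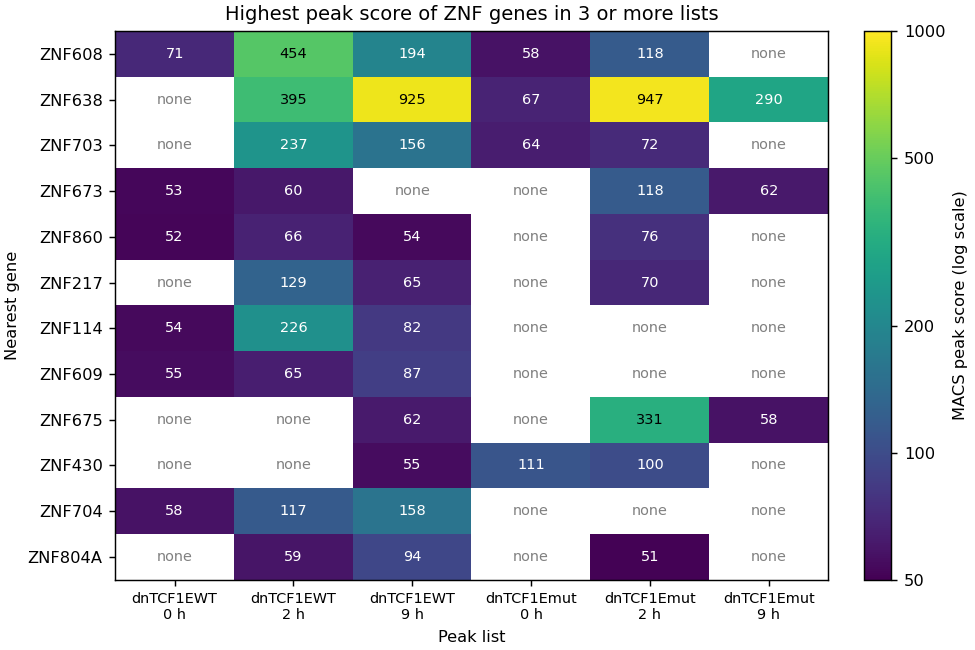
Highest MACS peak score, rounded, of each of the 12 ZNF genes nearest to a peak in 3 or more lists, colored on a log scale, with none where the list has no peak. ZNF638 has a score in 5 lists, from 67.32 to 947.16, and ZNF608 in 5, from 57.64 to 454.09.

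Of the 218 gene names, 160 (73.4%) were in 1 list, compared with 62.5% of the 8656 other protein-coding genes. Of the rest, 46 were in 2 lists, 7 in 3, 3 in 4 (ZNF673, ZNF703 and ZNF860) and 2 in 5 (ZNF608 and ZNF638). The 4 peaks of ZNF860 lay in introns of OSBPL10 at 4 different positions, with scores from 52.14 to 76.10. By position the lists shared less, for ZNF and other genes alike. The 388 ZNF peaks fell into 360 separate regions, of which 337 (93.6%) were in 1 list, compared with 92.0% of 17095 regions of other genes. Of the 69 ZNF genes with a dnTCF1EWT peak at 2 h, 37 (53.6%) also had one at 9 h, which is 21.6% of the 171 genes of that list. For other protein-coding genes the shares were 61.2% of 3442 and 31.7% of 6644.

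At the level of peaks, 17 of 89 ZNF peaks of dnTCF1EWT at 2 h overlapped a 9 h peak, which is 19.1% (12.3 to 28.5), compared with 14.9% of all peaks of the 2 h list. Among the 17, 9 had the higher score at 2 h and 8 at 9 h, with a median log2 ratio of the 9 h to the 2 h score of -0.01. Among all 833 such peaks the median was -0.33 and 66.1% had the higher score at 2 h. The ratio was -1.63 for ZNF114, -1.23 for ZNF608, -0.60 for ZNF703 and -0.51 for ZNF750, and 0.80 for ZNF143 and 1.23 for ZNF638. Read from the 9 h list, 17 of 236 ZNF peaks (7.20%, 4.55 to 11.2) overlapped a 2 h peak, compared with 6.47% of all peaks.

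With dnTCF1Emut at 2 h, 3 of 89 ZNF peaks of dnTCF1EWT overlapped, which is 3.37% (1.15 to 9.45), compared with 9.44% of all peaks. They were those of ZNF638, ZNF217 and ZNF804A. From the dnTCF1Emut side they were 3 of 15 ZNF peaks (20.0%, 7.05 to 45.2), compared with 27.9% of all peaks. The dnTCF1EWT score was lower than that of dnTCF1Emut for ZNF638, with a log2 ratio of -1.26, and higher for ZNF217 (0.95) and ZNF804A (0.23). At 9 h, 2 of 236 ZNF peaks of dnTCF1EWT (0.847%) overlapped a dnTCF1Emut peak, compared with 0.685% of all peaks, and 2 of 5 dnTCF1Emut peaks overlapped dnTCF1EWT, compared with 24.6%. These were the retroviral repeats at ZNF638 and ZNF675. Within dnTCF1Emut, 3 of 15 ZNF peaks at 2 h overlapped a 9 h peak, compared with 12.4% of all peaks, and 3 of 5 at 9 h overlapped a 2 h peak, compared with 65.8%. They were those of ZNF638, ZNF675 and ZNF673.

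No ZNF peak of the dnTCF1EWT lists at 2 h or 9 h overlapped a peak of untreated dnTCF1EWT cells, which allows up to 3.37% and 1.27%, compared with 1.40% and 1.24% of all peaks. From the 0 h side, 0 of 35 ZNF peaks overlapped a peak at 2 h, at 9 h or in untreated dnTCF1Emut cells, each of which allows up to 8.57%, compared with 4.14%, 8.34% and 0.105% of all 0 h peaks. The ZNF638 peak alone among the dnTCF1EWT ZNF peaks at 2 h (1 of 89) and 9 h (1 of 236) overlapped a dnTCF1Emut 0 h peak, compared with 0.286% and 0.0769% of all peaks. In the dnTCF1Emut line 4 of 15 ZNF peaks at 2 h overlapped a 0 h peak, which is 26.7% (10.9 to 52.0), compared with 17.3% of all peaks. From the 0 h side they were 4 of 8, compared with 45.6%, and at 9 h 1 of 5 ZNF peaks overlapped a 0 h peak, compared with 32.8%. These were the AT-rich peaks of ZNF430, ZNF608 and ZNF703 and the LTR22A peak of ZNF638.

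**Figure D5:**
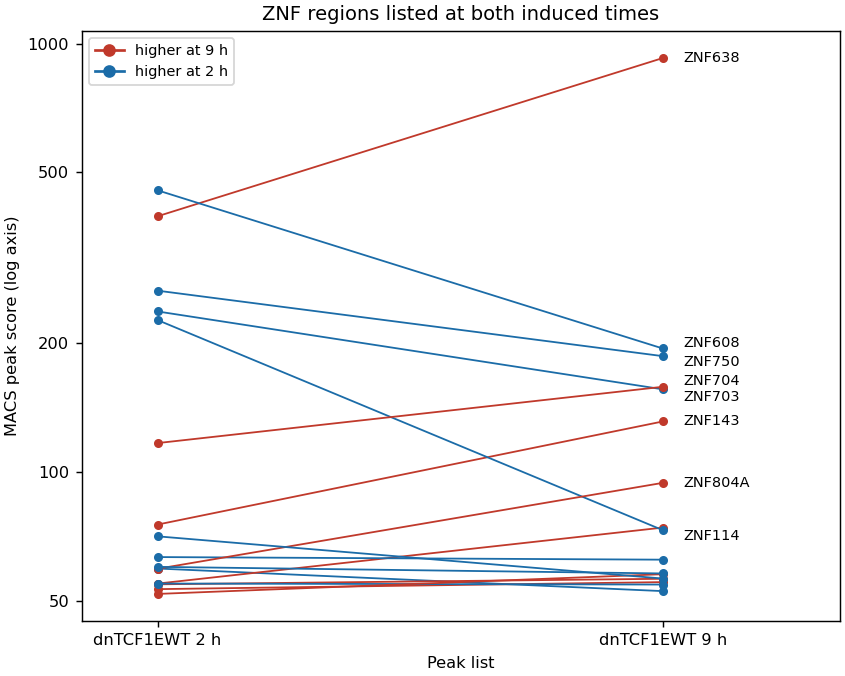
MACS peak scores, on a log axis, of the 17 ZNF regions listed at both 2 h and 9 h of dnTCF1EWT, 1 line per region, in blue where the score was higher at 2 h (9 regions) and in red where it was higher at 9 h (8 regions). ZNF638 rises from 394.91 to 924.83, and ZNF608 goes from 454.09 to 193.94.

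Within genes, 141 ZNF peaks were annotated to an intron, and 138 could be matched to a RefSeq gene. Of these, 115 lay in an intron of the ZNF gene itself, 4 in that of another ZNF gene and 19 in that of another gene, as for ZNF750 and ZNF860. In exons there were 4 ZNF peaks, of ZNF780B (76.17, dnTCF1EWT 2 h), ZNF519 (144.79, dnTCF1EWT 9 h), and ZNF350 and ZNF227 (64.50 and 58.37, dnTCF1Emut 2 h). All 4 were in the last exon of the gene, and 3 held a WRE, the exception being ZNF519. The share of other exon peaks with a WRE was not counted. Over other protein-coding peaks of any position, a WRE was in 15.8% and 6.03% at 2 and 9 h of dnTCF1EWT. At 2 h of dnTCF1Emut it was in 36.5%. Of the 82 exon peaks of other genes 17 (20.7%) were in the last exon. The lengths of the exons were not taken into account. This count was chosen after its values were seen and was not tested.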

How the data were processed

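FLAG-tagged dnTCF1EWT and dnTCF1Emut were measured by ChIP-seq in the DLD-1 line before and 2 and 9 h after doxycycline (0, 2 and 9 h). Duplicates were pooled by the authors, who called peaks with MACS and annotated them with HOMER on hg19, and the labels also name Bowtie2 2.0.0, CASAVA 1.8.2, HOMER 3.16 and MACS 1.3. The deposited peak score is the MACS score, and the deposited GC content is a fraction, given here in percent. The labels describe most libraries as first replicates, whereas the paper describes pooled duplicates. Input libraries and reads were not analysed here. The deposited interval files hold the same peaks as the annotated lists.

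Peaks were assigned by the deposited gene name, and shares were given with Wilson 95% intervals. No test was made. Any shared base counted as an overlap between lists, with the highest-scoring overlapping peak used. RefSeq (GRCh38.p14) gave gene order, symbols and promoters, and all 218 names matched by gene ID. Of these, 12 have another current symbol and 8 are no longer ZNF genes (ZNF673 is KRABD4). Promoters matched 176 names.

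Genes named were the 5 highest-scoring ZNF peaks of each list, genes in 4 or more lists, the 5 highest promoter peaks (all, where 5 or fewer, in other lists), the 5 highest dnTCF1EWT 2 h peaks that overlap dnTCF1Emut or hold a Helper site, the 3 genes with most 9 h peaks, and KRAB corepressor genes with a promoter peak. Other genes were named after seeing their values. The members and lists were chosen with earlier results of these data known, and the division by neighbors, the exon count and the alternatives on SINEs and current symbols after seeing the data. Alternatives used the top 1000 peaks, a score of 100 or more, peaks without a 0 h overlap, without GC below 15% or without chromosome 19, another denominator or gene class, the HOMER promoter class and an overlap of 50%. Scripts were tested on simulated data. Python 3.11.15, NumPy 2.4.6, pandas 2.3.3 and matplotlib 3.10.9 were used.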

Additional observations from a re-analysis of the deposited data

Results flagged for a closer look

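The ZNF638 region was the only ZNF region with a score in all 4 induced lists, and its score moved in opposite directions in the 2 lines. The log2 ratio of the 9 h to the 2 h score was 1.23 for dnTCF1EWT and -1.71 for dnTCF1Emut. Of the 58 dnTCF1EWT 2 h peaks that were overlapped in the 3 other induced lists, 8 moved the same way. The difference was not tested, since each condition is 1 pooled list. Scores are not scaled between libraries, and the ZNF638 peak had the same rank in the dnTCF1Emut lists at 2 h and 9 h. The other ZNF regions in both of those lists, at ZNF675 and ZNF673, also had lower scores at 9 h, with log2 ratios of -2.52 and -0.93.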

How the results depend on the processing

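Of 240 alternative values of the ZNF shares, 179 stayed within the Wilson interval of the reported value and 61 did not. The cause of each change was not tested. The order of the ZNF and the other share, compared after seeing the data with the same subsets taken of both, reversed in 35 of 160 comparisons, 23 of them in dnTCF1EWT lists. In 3 of the 35 the intervals were apart as reported, and in 0 of them under the alternative. The 3 rested on few ZNF peaks. They were chromosome 19 at 9 h of dnTCF1EWT at a score of 100 or more (0 of 8 ZNF peaks, 1.88% of other peaks), WREs at 0 h of dnTCF1Emut at that score (0 of 2 and 1.54%), and promoters at 2 h of dnTCF1Emut without chromosome 19 (0 of 10 and 2.67%). Among the rest, at a score of 100 or more in dnTCF1EWT, the ZNF share was the higher for WREs (66.7% and 50.9%) and Helper sites (44.4% and 17.7%) at 2 h, and at 9 h the lower for WREs (37.5% and 43.3%) and the higher for Helper sites (25% and 19.1%). No paired analysis was possible because each condition is 1 pooled list, and for the same reason no replicate was left out. Depth limits all peak counts, since it is unknown.

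With only peaks of a score of 100 or more, the ZNF share of protein-coding peaks was 0.00%, 1.19% and 1.85% and of genes 0.00%, 1.18% and 2.04% at 0, 2 and 9 h of dnTCF1EWT. The share of ZNF peaks on chromosome 19 became 11.1% (1 of 9) and 0.00% (0 of 8) at 2 and 9 h of dnTCF1EWT. At 0 and 9 h of dnTCF1Emut it became 100% (2 of 2) and 0.00% (0 of 1). Peaks with a WRE became 66.7% (6 of 9) and 37.5% (3 of 8) at 2 and 9 h of dnTCF1EWT. Those with a Helper site became 44.4% (4 of 9) and 25% (2 of 8). WREs were in 0.00% (0 of 2 peaks) and 100% (1 of 1 peak) at 0 and 9 h of dnTCF1Emut. Promoter peaks became 12.5% (1 of 8) at 9 h of dnTCF1EWT and 50% (1 of 2) at 0 h of dnTCF1Emut. Overlap of dnTCF1EWT 2 h peaks became 66.7% (6 of 9) with 9 h and 22.2% (2 of 9) with dnTCF1Emut 2 h. Overlap of dnTCF1Emut 9 h with 0 h became 100% (1 peak).

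The top 1000 peaks of dnTCF1EWT held 9, 16 and 16 ZNF peaks at 2, 9 and 0 h. With them, the dnTCF1EWT values were 1.11% of peaks, 1.10% of genes, 11.1% on chromosome 19, 66.7% with a WRE, 44.4% with a Helper site, and overlaps of 66.7% and 22.2% at 2 h. At 9 h they were 12.5% on chromosome 19, 31.2% with a WRE and 18.8% with a Helper site, and at 0 h 0.00% with a WRE and 0.00% at promoters. A score of 100 or more was then found for 100%, 50% and 100% of ZNF peaks in the dnTCF1EWT 2 h, dnTCF1EWT 9 h and dnTCF1Emut 2 h lists, which the selection by score fixes in part.

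Without chromosome 19 the ZNF share of protein-coding peaks was 1.39% at 2 h and 1.44% at 9 h of dnTCF1EWT. Promoter peaks were then 4.92% (3 of 61) at 2 h and 0.00% (0 of 25) at 0 h of dnTCF1EWT. They were 0.00% at 0 and 2 h of dnTCF1Emut (0 of 4 and 0 of 10). Helper sites were in 0.00% (0 of 25) at 0 h of dnTCF1EWT, and scores of 100 or more in 0.00% (0 of 4) at 0 h of dnTCF1Emut. Without AT-rich peaks the dnTCF1Emut 0 h list kept only 3 ZNF peaks. They were 3.19% of peaks (3 of 94, 1.09 to 8.97), an interval that includes the 2.58% of RefSeq genes, and 3.23% of genes. A WRE was in 66.7% (2 of 3, 20.8 to 93.9), and 0.00% were at promoters or had a score of 100 or more. At 2 h 80.0% (8 of 10) held a WRE and 10.0% (1 of 10) overlapped a 0 h peak. After removal of regions also listed at 0 h, 0.00% of dnTCF1Emut 9 h peaks (0 of 4) scored 100 or more. With HOMER's promoter class the promoter shares were 0.00%, 4.49% and 1.27% at 0, 2 and 9 h of dnTCF1EWT, and with all peaks as the denominator the ZNF share at 9 h was 1.82%. Without SINE peaks, an alternative chosen after seeing the data, a WRE was in 25% and 25.4%, and a score of 100 or more in 22.2% and 11.9%, of ZNF peaks at 2 and 9 h of dnTCF1EWT, and 13.6% were at promoters at 9 h. Counting only genes of the type protein-coding, only current ZNF symbols or overlaps that cover 50% of each peak kept all values within the interval.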

Other observations

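Genes that act with KRAB zinc finger proteins were examined as a list of 12 (TRIM28, SETDB1, CBX1, CBX3, CBX5, CHD3, CHD4, ATF7IP, MPHOSPH8, FAM208A, PPHLN1 and MORC2). Of these, 5 were nearest to 9 peaks (TRIM28, ATF7IP, CBX1, CBX3 and FAM208A), all in dnTCF1EWT lists, and 7 were nearest to none. By list, 1, 2 and 4 of the 12 had a peak at 0, 2 and 9 h of dnTCF1EWT. Of RefSeq protein-coding genes other than ZNF genes, 6.77%, 17.4% and 33.5% had one. In the dnTCF1Emut lists 2.42%, 5.94% and 1.24% of those genes did. Among other protein-coding peaks of dnTCF1EWT, 5.65% at 2 h and 5.01% at 9 h lay within 2 kb of a TSS, and 15.8% and 6.03% held a WRE. Of the 9 peaks of the listed genes, none was within 2 kb of a TSS and none held a WRE. The median score was 54.4 at 2 h and 57.0 at 9 h, and that of other protein-coding peaks was 58.8 and 56.7. TRIM28, the corepressor that KRAB domains recruit, had 1 peak 5346 bp upstream with a score of 54.36 at 2 h. The highest score was 73.14, 15387 bp upstream of FAM208A at 9 h.

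Genes with symbols of other zinc finger families were also nearest to peaks. They were taken by the start of the symbol alone, and it was not checked that each encodes a zinc finger protein. The KLF genes, which bind GC-rich promoters, were nearest to 16 peaks of 9 genes at 2 h of dnTCF1EWT, of which 4 had a score of 100 or more and 4 held a WRE, and to 11 peaks at 2 h of dnTCF1Emut, of which 3 had such a score. Genes whose symbol is SP followed by a number were nearest to 6 peaks at 2 h of dnTCF1EWT, 2 of them with a score of 100 or more. The ZBTB genes, which pair zinc fingers with a BTB domain, were nearest to 12 peaks at 2 h and 26 at 9 h of dnTCF1EWT, 1 and 2 of them with such a score. At 2 h of dnTCF1EWT, 1 of 8 ZFP peaks and 1 of 4 ZIC peaks had such a score. None did among the 2 ZSCAN, 1 ZKSCAN, 2 GLI and 2 EGR peaks of that list. Over all peaks of these lists, a score of 100 or more was found for 16.6% (dnTCF1EWT 2 h), 4.35% (dnTCF1EWT 9 h) and 35.8% (dnTCF1Emut 2 h). A WRE was in 15.8% of protein-coding peaks other than ZNF peaks at 2 h of dnTCF1EWT. The family values are counts of few peaks, and the families were not compared with each other by a test.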
